A study of Mus musculus with 11 samples.

Results

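In mouse retina, 365 of 36097 non-coding features were nearly absent in wild-type relative to their level in retina without Nrl. A feature is an assembled transcript region, named by its MSTRG number. A member was a feature whose mean over the 6 knockout libraries was at least 20 normalised counts and whose mean over the 5 wild-type libraries was at most 1/10 of it. Members were thus chosen by the normalised counts of these same libraries, and their levels are given as a description.

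The libraries came from whole retina at postnatal day 21 and were made from RNA depleted of polyadenylated transcripts. The groups were 5 wild-type libraries and 6 Nrl knockout libraries. The labels give only the genotype: the sources used here do not give the strain, the allele, any treatment, or whether a library held 1 animal or several. Libraries are numbered without naming animals, so the spread between them, and any p-value that rests on it, may in part be technical. A normalised count is a read count that the authors divided by a size factor of its library.

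Nrl is a leucine zipper protein that makes newborn photoreceptors become rods, and without it they take on a form resembling short-wavelength cones. RNA without a poly(A) tail includes small nuclear and nucleolar RNAs, circular RNAs, RNA copied from enhancers, spliced-out introns and unfinished transcripts. Chromosomes fold into topologically associating domains, stretches whose parts touch each other more often than they touch the outside, and enhancers mostly act on genes of their own domain. The deposited table places each feature in such a domain (TAD) or between domains (interTAD) and lists the mRNAs that are higher or lower within it.

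No member has a name in the deposited table other than its MSTRG number, but 32 lie on the strand of an annotated non-coding gene. The first exons of 5 such genes are shown because they overlap some of the most abundant or most strongly differing members. That of Gm12802 starts 29 bp before its member. Gm8189 and A930038B10Rik have further annotated first exons that are not shown. They come from GENCODE M21 transcripts on mm10, 5′ to 3′, and for Gm12802, Gm8189 and Gm41031 only the first 300 bases are shown. Capitals mark AGGTCA or its reverse complement, the core letters read by many nuclear receptors.
Gm12802 first exon, chr4:107126613-107126912, plus strand: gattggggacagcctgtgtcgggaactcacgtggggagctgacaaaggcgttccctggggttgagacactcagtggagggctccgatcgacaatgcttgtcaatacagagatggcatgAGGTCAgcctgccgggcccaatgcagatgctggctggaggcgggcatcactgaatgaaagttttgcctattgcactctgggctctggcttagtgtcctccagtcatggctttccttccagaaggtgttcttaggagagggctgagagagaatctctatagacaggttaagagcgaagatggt
Gm8189 first exon, chr19:8541499-8541798, minus strand: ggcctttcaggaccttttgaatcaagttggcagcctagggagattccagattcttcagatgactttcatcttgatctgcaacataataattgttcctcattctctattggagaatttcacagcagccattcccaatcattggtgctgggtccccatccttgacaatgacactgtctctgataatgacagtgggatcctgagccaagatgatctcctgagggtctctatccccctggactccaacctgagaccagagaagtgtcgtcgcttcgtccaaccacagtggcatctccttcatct
Gm41031 first exon, chr13:97825586-97825885, minus strand: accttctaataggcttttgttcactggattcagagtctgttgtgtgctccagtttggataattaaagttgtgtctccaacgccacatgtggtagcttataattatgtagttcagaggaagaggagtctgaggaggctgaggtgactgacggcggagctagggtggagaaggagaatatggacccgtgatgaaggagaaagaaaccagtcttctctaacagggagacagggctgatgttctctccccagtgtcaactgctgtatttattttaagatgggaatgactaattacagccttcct
A930038B10Rik first exon, chr14:34759402-34759492, plus strand: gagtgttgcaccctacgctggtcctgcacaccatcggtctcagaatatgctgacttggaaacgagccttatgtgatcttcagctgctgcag
Gm47887 first exon, chr9:55067227-55067463, minus strand: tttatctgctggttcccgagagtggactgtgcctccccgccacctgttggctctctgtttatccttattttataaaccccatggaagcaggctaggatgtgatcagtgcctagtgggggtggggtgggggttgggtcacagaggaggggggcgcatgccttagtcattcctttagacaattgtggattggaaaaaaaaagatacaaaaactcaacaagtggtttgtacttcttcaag

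Promoter windows of RefSeq genes (GRCm38.p6, from 250 bases before to 50 after the start) were matched to members whose 5′ end lay within 1000 bp of the start, which gave 13 windows. Those of Gm33616, Chrnb4 and A930038B10Rik are shown. Gm33616 starts 16 bp from the 5′ end of MSTRG.94047, the closest match, Chrnb4 is itself listed as a higher mRNA, and A930038B10Rik has a member on either strand. The A930038B10Rik window belongs to another start than the exon printed above. It lies downstream of that exon and inside the plus-strand member MSTRG.27663.
Gm33616 promoter window, chr9:106418301-106418600, minus strand: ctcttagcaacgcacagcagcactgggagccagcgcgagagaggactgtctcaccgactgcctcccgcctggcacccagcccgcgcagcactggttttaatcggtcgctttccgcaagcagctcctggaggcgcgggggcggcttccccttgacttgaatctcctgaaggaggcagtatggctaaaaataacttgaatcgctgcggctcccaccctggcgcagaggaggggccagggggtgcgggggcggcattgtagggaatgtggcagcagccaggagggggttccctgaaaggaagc
Chrnb4 promoter window, chr9:55048495-55048794, minus strand: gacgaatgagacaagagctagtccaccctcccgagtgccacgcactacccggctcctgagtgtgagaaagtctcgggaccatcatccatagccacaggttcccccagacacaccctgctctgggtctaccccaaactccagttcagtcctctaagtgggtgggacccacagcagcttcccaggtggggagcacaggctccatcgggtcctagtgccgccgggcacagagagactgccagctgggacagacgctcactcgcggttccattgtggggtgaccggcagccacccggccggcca
A930038B10Rik promoter window, chr14:34759945-34760244, plus strand: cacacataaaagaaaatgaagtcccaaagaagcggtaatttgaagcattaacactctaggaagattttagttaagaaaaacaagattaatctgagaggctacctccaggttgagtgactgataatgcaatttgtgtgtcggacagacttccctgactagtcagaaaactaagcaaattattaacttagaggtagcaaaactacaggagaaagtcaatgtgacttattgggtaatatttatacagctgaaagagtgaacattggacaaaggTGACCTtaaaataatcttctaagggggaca
On both strands, AGGTCA was found in 3 of the 13 windows (23.1%) and in 16.3% of 32851 RefSeq windows of the same length. TAATCC, the core letters read by the photoreceptor factor Crx, was found in 1 of 13 (7.69%) and in 7.06% of all windows. CANNTG, the E-box letters, was found in 10 of 13 (76.9%) and in 72.3% of all. A CANNTG match can share its first letters with an AGGTCA match, and a match describes letters only. The members beside these exons and windows include MSTRG.27663 (chr14:34759237-34770537, plus strand) in A930038B10Rik, with 56.2, 41.4, 29.7, 31.0 and 35.3 normalised counts in wild-type and 877, 1489 and 1754 as the lowest, median and highest in knockout. MSTRG.91468 (chr9:55064434-55067842, minus strand) in Gm47887 held 43.9, 18.8, 24.1, 13.5 and 25.2 in wild-type and 489, 542 and 663 in knockout. MSTRG.94047 (chr9:106414039-106418334, minus strand) at Gm33616 held 28.8, 15.1, 20.4, 11.6 and 24.2 in wild-type and 241, 303 and 366 in knockout. In all 3 every knockout library is above every wild-type library.

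Listed features held 3238184 to 4150460 reads in the wild-type and 3374221 to 4876429 in the knockout libraries, and 1 read was worth 0.758 to 1.37 normalised counts. The feature opposite to Nrl, MSTRG.28375, averaged 42.1 ± 9.42 normalised counts over 5 wild-type and 0.126 ± 0.310 over 6 knockout libraries (mean ± SD), a log2 difference of -5.27 (SE 0.37, limma adjusted p = 7.43e-12). The exact permutation test, two-sided, gave its smallest possible p, 0.00433. The sources used here do not say which part of Nrl the allele changes. Features over 19 rod genes summed to 3988 to 6549 normalised counts in wild-type and 628 to 1065 in knockout, and those over 11 cone genes to 372 to 414 and 1277 to 1979.8. Features over 5 glial stress genes summed to 242 to 406 and 816 to 1479.7, and those over 2 microglial genes to 9596 to 16468 and 2994 to 24813. Features over 12 photoreceptor transcription factor genes summed to 3733 to 4803 and 10965 to 13766. Those over 3 horizontal cell genes summed to 39.0 to 53.5 and 25.9 to 35.4. For the remaining marker lists with features, the ranges of the genotypes overlapped. In whole tissue, more cells of a type and more RNA per cell cannot be told apart, and the part of each cell type in the members' levels was not tested.

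The label was checked against the reads. Across the 365 members the wild-type mean had a median of 3.18 normalised counts (quartiles 1.51 and 7.92), and the knockout mean a median of 56.7 (quartiles 32.8 and 132). In the wild-type libraries 122 members stayed at or below 3 reads in every library, and 98 exceeded 3 reads in every library. The wild-type mean reached 20 normalised counts for 47 members and 100 for 15, so for these "nearly absent" holds only against the knockout level. Members had 0 reads in 55 to 67 cases per wild-type library and in at most 1 case per knockout library.

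All 365 members averaged at least 5 normalised counts across the 11 libraries and so were among the 21395 features tested. limma called 364 of them higher in knockout, where it called 15.6% of all features tested higher. For 364 members every knockout library lay above every wild-type library, which held for 11.1% of all features tested. The rule used this contrast, and nothing is read from these counts. The exception in both was MSTRG.1428.

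The ratio of the group means had a median of 17.1 over all members, with the 3 members without any wild-type read set at their lower bound. It was at least 20 for 151 members, at least 50 for 58 and at least 100 for 27. On the log2(count + 1) scale the median difference was 3.80, and over all features tested it was -0.02. Summed over all members, the mean was 6612 ± 1060 normalised counts in wild-type and 104185 ± 11306 in knockout libraries (SD, n = 5 and 6). That was 0.157% to 0.191% of the reads listed in a wild-type library and 2.33% to 3.21% in a knockout library.

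**Figure D1:**
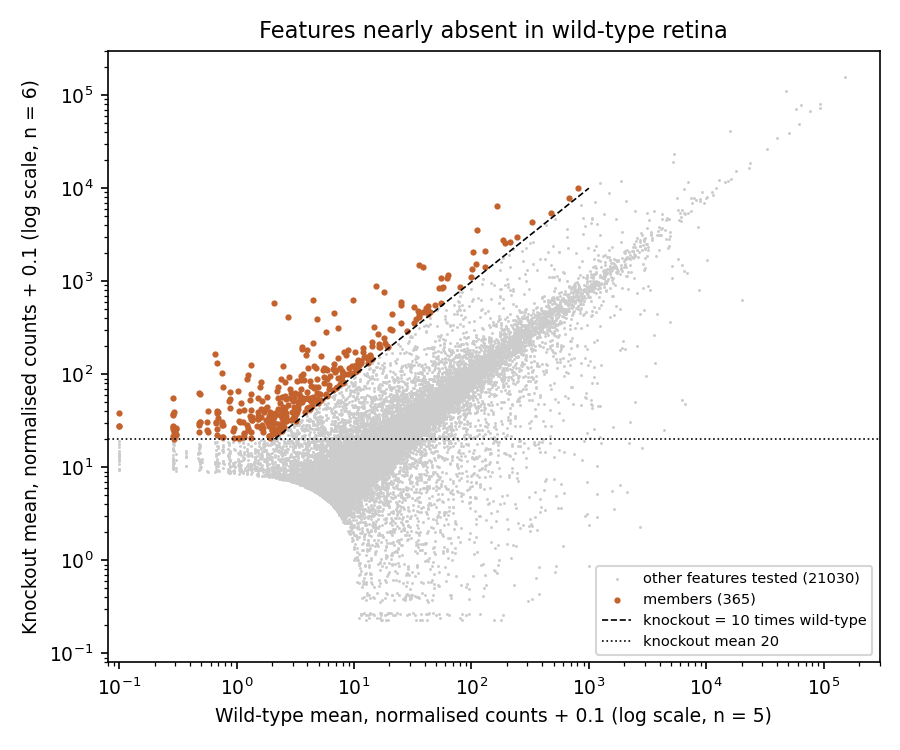
Mean normalised counts of each feature tested in wild-type (x, n = 5) and knockout retina (y, n = 6), both plus 0.1 on log scales. The 365 members (orange) fill the corner above a knockout mean of 20 (dotted) and above 10 times the wild-type mean (dashed), and reach from wild-type means of 0 up to 813.

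Values ran on across both limits of the rule. Just inside the limit of 20, MSTRG.74601, MSTRG.44041 and MSTRG.88807 had knockout means of 20.1, 20.3 and 20.5 normalised counts. Just outside it, MSTRG.96813, MSTRG.38444 and MSTRG.33160 had 19.81, 19.78 and 19.77. Just inside the limit of 10 on the ratio, MSTRG.6880, MSTRG.83937 and MSTRG.11521 had ratios of 10.05, 10.14 and 10.15. Just outside, MSTRG.51347 had 9.998, and MSTRG.33158 and MSTRG.20464 both had 9.98.

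The 10 members of highest knockout mean were 8299 to 70968 bp long and had at least 90.8 normalised counts in every wild-type library. MSTRG.46587 (chr19:56592068-56619061, minus strand), opposite to Nhlrc2, held 1229, 799.8, 729, 650.0 and 659 normalised counts in the wild-type libraries. In knockout its lowest, median and highest values were 6375, 10302 and 12746. The groups stand far apart, with wild-type 1 the highest of its group and knockout 5 the lowest of the other, and the means differ 12.5-fold (813 ± 240.0, n = 5, and 10134 ± 2088, n = 6, SD).

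MSTRG.32145 (chr15:73956963-74027930, plus strand), opposite to a non-coding gene in a domain with the surface protein genes Ly6a, Ly6c2 and Ly6e listed higher and the mitochondrial topoisomerase gene Top1mt listed lower, spans 70968 bp. It held 610.3, 677, 580.1, 624 and 921 normalised counts in wild-type, and 5816, 7768 and 9949 as the lowest, median and highest in knockout. The means differ 11.6-fold, and the groups do not overlap. MSTRG.13234 (chr11:35874118-35900671, plus strand) lies opposite to Wwc1, which encodes KIBRA, a regulator of the Hippo pathway, and Wwc1 is itself listed as a higher mRNA. It held 209.8, 149.6, 129.9, 191 and 152 in wild-type and 5482, 6551 and 7062 in knockout, a ratio of 38.5. Its values varied little in knockout, with a coefficient of variation (SD over mean) of 8.43%.

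MSTRG.15954 (chr11:83360870-83393223, minus strand) runs opposite to Ap2b1, a subunit gene of the clathrin adaptor, and has the small nucleolar RNA gene Gm23951 on its own strand. Its domain lists the chemokine genes Ccl3, Ccl4, Ccl5, Ccl6 and Ccl9 as higher. It held 668, 419.7, 509, 387 and 372 normalised counts in wild-type, and 4246, 5561 and 6264 as the lowest, median and highest in knockout. MSTRG.62942 (chr4:107126642-107138863, plus strand) starts 29 bp inside the first exon of Gm12802 printed above. It held 129, 99.7, 117, 118 and 90.8 in wild-type and 2876, 3445 and 4520.4 in knockout, a ratio of 32.0 with no overlap.

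MSTRG.86063 (chr8:48311920-48338452, plus strand), opposite to the teneurin adhesion gene Tenm3, held 284, 270.1, 247, 222 and 201 normalised counts in wild-type and 2255, 3155 and 3318 as the lowest, median and highest in knockout. The intergenic MSTRG.73754 (chr6:49957056-49965354, plus strand) held 233, 151, 187, 156 and 199 in wild-type and 2132, 2921 and 3249 in knockout. MSTRG.66166 (chr5:8825217-8848883, minus strand), opposite to the drug efflux transporter gene Abcb1b, which is listed as higher, held 169, 164, 174, 199 and 255 in wild-type and 2043, 2592 and 3090.3 in knockout. The groups do not overlap in any of the 3.

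The 10 members of highest knockout mean held 46.8% of all member counts in knockout and the first 20 held 61.0%, so any sum over the members is mostly theirs. Their ratios were mostly near the limit: 8 of the 10 lay between 11.5 and 15.05, and the other 2, MSTRG.13234 and MSTRG.62942, at 38.5 and 32.0. Per length the order changes. MSTRG.46587 had 375 knockout counts per 1000 bp and MSTRG.67714 (65910 bp) had 39.9, while the shortest member, MSTRG.60259, had 504.

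**Figure D2:**
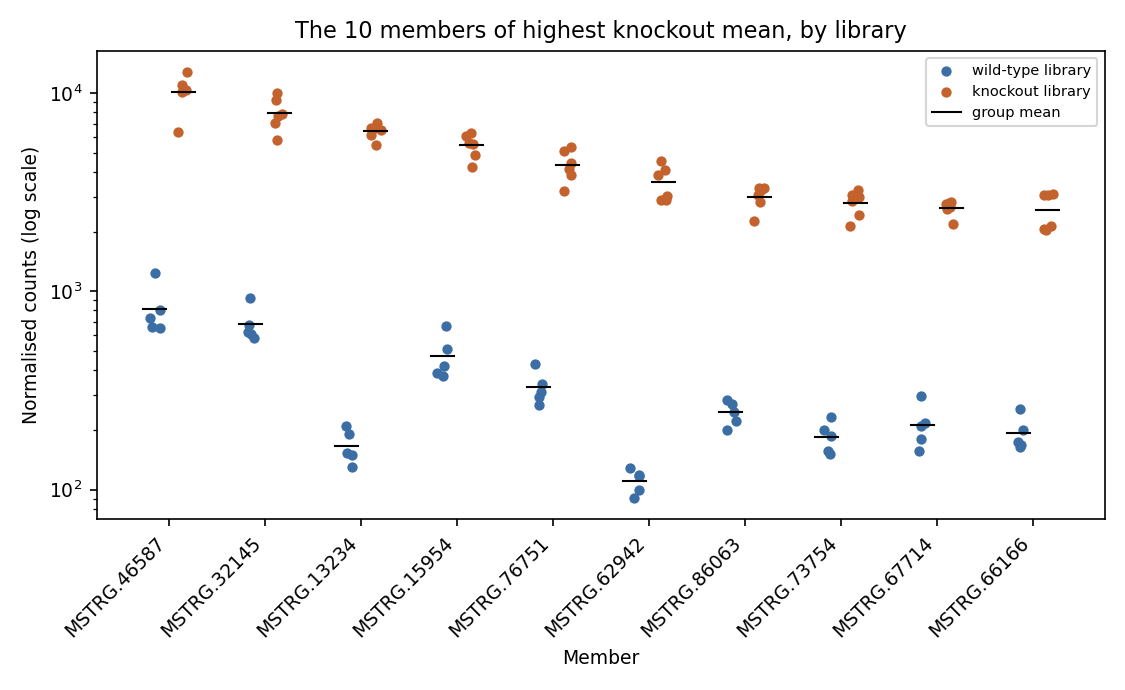
Normalised counts (log scale) of the 10 members of highest knockout mean in each wild-type (blue) and knockout library (orange), with bars at the group means. In all 10 the groups are apart, and the wild-type libraries hold from 90.8 counts (MSTRG.62942) to 1229 (MSTRG.46587).

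At the other end, 3 members had 0 reads in all 5 wild-type libraries. They were MSTRG.96247 (chrX:53596374-53597348, plus strand, 22.0 to 55.1 normalised counts in knockout), MSTRG.7049 (chr1:191438881-191439621, plus strand, 13.3 to 51.0) and MSTRG.35512 (chr16:35718106-35718611, plus strand, 14.9 to 46.8). A count of 0 allows up to 3 reads per library, a mean of 3.13 normalised counts, and against that floor they were at least 12.2-fold, 8.85-fold and 8.81-fold higher in knockout. A further 45 members had 1 to 3 reads over all wild-type libraries together. For them the depth does not set a ratio.

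Among members with more than 3 wild-type reads in all, the highest ratio was that of MSTRG.25914 (chr13:97835280-97845656, minus strand), intergenic, with 1.37, 0.941, 4.64, 0.967 and 2.02 normalised counts in wild-type and 488, 595 and 683 as the lowest, median and highest in knockout. Next to it MSTRG.25908 (chr13:97779286-97833490, minus strand) spans 54205 bp and holds the Gm41031 exon printed above. It held 4.11, 1.88, 3.71, 1.93 and 10.1 in wild-type and 341, 664 and 750.2 in knockout. All 6 knockout libraries lie far above all 5 wild-type libraries in both.

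MSTRG.28378 (chr14:55528827-55532520, plus strand) lies beyond the 5′ end of Nrl, 3846 bp from its start to the start of Nrl. It held 5.49, 0.941, 1.86, 2.90 and 2.02 normalised counts in wild-type and 339.7, 421 and 452 as the lowest, median and highest in knockout. The groups stand far apart. Nrl is listed as lower in its domain, and Irf9, a factor of interferon signalling, as higher. Whether the knockout allele itself alters transcription at this place was not tested.

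In Gm8189, a non-coding gene on chromosome 19, several members followed each other on the minus strand. MSTRG.44705 (chr19:8476697-8495149) held 41.1, 25.4, 34.3, 33.9 and 42.4 normalised counts in wild-type, and 1063, 1549.9 and 1809 as the lowest, median and highest in knockout. MSTRG.44710 (chr19:8517441-8543422), which holds the Gm8189 exon printed above, had 16.5, 16.0, 12.1, 14.5 and 17.1 in wild-type and 699, 892 and 1057 in knockout. Both pairs of groups are far apart, with ratios of 41.9 and 58.1. Their domain, TAD_2508, has 6 members and lists 4 mRNAs, all lower: Slc22a8, Slc22a28, Slc22a29 and Slc22a30, of the organic ion transporter family.

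Lengths covered almost 3 orders of magnitude. Members were 125 to 84777 bp long, with a median of 1034 bp (quartiles 728 and 2259). The median was 503 bp for all features tested, but these include many low ones. For the 7683 other features with a knockout mean of at least 20 it was 1347 bp. For the mirror set, the 548 features with a wild-type mean of at least 20 and a knockout mean at most 1/10 of it, it was 1000.5 bp.

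Short members were the most numerous class, and long ones held most of the reads. The 172 members under 1000 bp held 6.71% of the member counts in knockout, the 139 of 1000 bp to under 5000 bp held 20.1%, and the 54 of 5000 bp or more held 73.2%. Knockout counts per 1000 bp had medians of 48.3, 52.2 and 68.7 in these classes. Ratios of the means had medians of 19.8, 15.3 and 15.99. The wild-type means had medians of 1.76, 5.12 and 34.0 normalised counts, so the ratios of short members rest on few reads.

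The longest and the shortest members differ by position as well as by size. The longest, MSTRG.36984 (chr16:97220507-97305283, minus strand), is intergenic with Dscam, a neuronal adhesion gene, as the nearest coding gene. It held 0, 0, 0.928, 0 and 2.02 normalised counts in wild-type and 18.7, 30.6 and 50.8 in knockout, only 0.396 per 1000 bp at the knockout mean. The shortest, MSTRG.60259 (chr4:19445645-19445769, minus strand, 125 bp), lies opposite to Cngb3, the beta subunit of the cone cyclic nucleotide-gated channel. It held 1.37, 4.70, 6.50, 4.84 and 6.05 in wild-type and 45.4, 56.4 and 92.8 in knockout. Neither has overlapping groups.

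**Figure D3:**
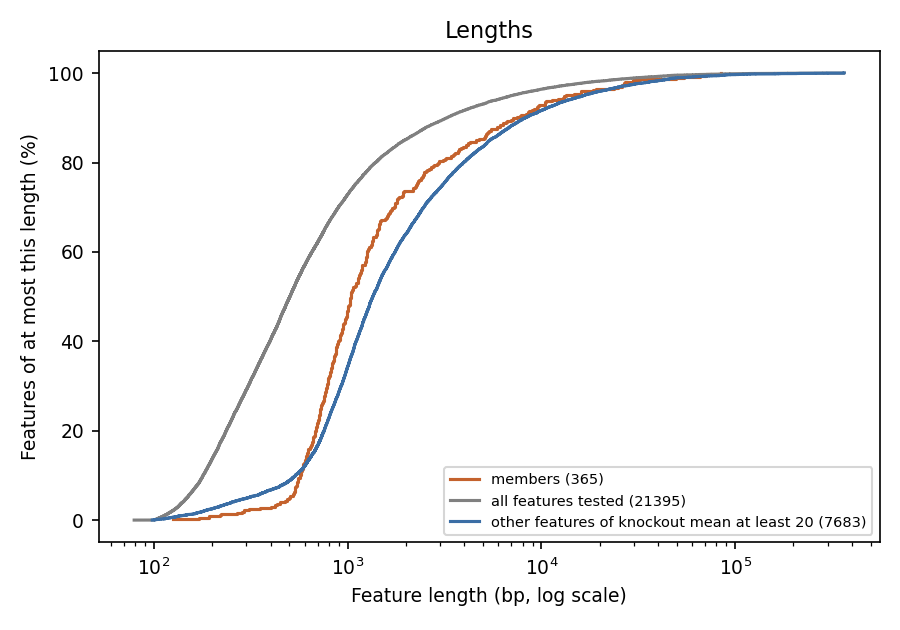
Share of features (y, %) at most as long as the length on the x axis (bp, log scale). The curve of the 365 members, median 1034 bp, lies between that of all 21395 features tested, median 503 bp, and that of the 7683 other features of knockout mean at least 20, median 1347 bp.

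By strand, 201 members were on the minus and 164 on the plus strand, 55.1% minus against 49.5% of all features tested. Neighbours on 1 strand may belong together, so the members are not separate draws. By the annotation, 184 were intergenic (50.4% against 50.5% of all tested), 129 opposite to a coding gene (35.3% against 29.3%) and 20 opposite to a non-coding gene (5.48% against 3.70%). The 32 on the strand of a non-coding gene made up 8.77%, against 13.4%. None of the 365 lay on the strand of a coding gene, where 3.15% of all features tested and 0.547% of the mirror set lay. The ratio of means had medians of 17.5, 16.2, 15.3 and 17.95 in the intergenic, antisense coding, antisense non-coding and non-coding classes.

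Few members lay close to a coding start. From the middle of a member to the nearest coding start the median distance was 54124 bp, against 32831 bp for all features tested and 31411 bp for the other features of knockout mean at least 20. It exceeded 100000 bp for 106 members (29.0% against 24.7% of all tested). In the mirror set described above the median was 30786.5 bp and 16.8% exceeded 100000 bp. There were 6 members (1.64%) that began within 5000 bp after the end of a coding gene on their strand, against 7.44% of all features tested and 1.82% of the mirror set. The 5′ end lay within 1000 bp of the start of a coding gene on the other strand for 4 members (1.10%), against 4.16% and 0.730%.

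These 4 members were next to genes of distinct kinds. The distance counts either direction, so a member may begin inside the gene. MSTRG.72794 begins 133 bp from the start of Opn1sw, the opsin gene of short-wave cones, by GENCODE's start. It overlaps that gene over this stretch only and runs on beyond the start. No RefSeq promoter window of Opn1sw was matched to it. MSTRG.91462 (chr9:55048904-55050499, plus strand) begins 125 bp from Chrnb4, a nicotinic acetylcholine receptor subunit gene whose promoter window is printed above, by GENCODE's start, and 360 bp from it by that of RefSeq. It held 13.7, 3.76, 1.86, 3.87 and 7.06 normalised counts in wild-type and 62.2, 68.0 and 85.8 as the lowest, median and highest in knockout. MSTRG.6251 begins 379 bp from Apcs, which encodes serum amyloid P. MSTRG.50370 begins 856 bp from the start of the predicted gene Gm10803 and overlaps that gene. The groups of libraries do not overlap in any of the 4.

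Along the chromosomes the members were uneven. Chromosome 1 had 41 members (3.15% of its features tested), chromosome 12 had 31 (2.29%) and chromosome 19 had 24 (4.27%). Chromosome X had 4 (0.570%), chromosome 3 had 8 (0.787%) and chromosome 7 had 11 (0.903%). Counting groups of members within 10000 bp of each other once, chromosome 1 had 26 groups, chromosome 12 had 18, chromosome 19 had 14 and chromosome X had 3.

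Joined across gaps of up to 10000 bp, the 365 members formed 261 groups. Of the members, 194 stood alone and 171 (46.8%) fell into 67 groups: 44 of 2, 14 of 3, 5 of 4, 3 of 5 and 1 of 6. By the same joining within each set, 57.5% of the 7683 other features of knockout mean at least 20 and 56.0% of the mirror set had a neighbour, but a denser set joins more often. In 36 of the 67 groups all members shared 1 strand, and 31 held both. Within the spans of the 67 groups lay 42 further listed features, of which 22 were tested: 19 were called higher, 0 lower and 3 neither (limma, adjusted p below 0.05), in spans picked for their members, where 15.6% of all features tested were called higher. Neighbours may be pieces of the same transcript, and they are not replicates of each other.

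Some members began close together on opposite strands. Of the members, 46 (12.6%) had their 5′ end within 2000 bp of that of a member of the other strand, pointing away from it, against 7.67% of the other features of knockout mean at least 20 and 17.3% of the mirror set, each within its own set. Further, 30 members overlapped a member of the opposite strand, and 51 overlapped any listed feature of the opposite strand. Libraries were stranded, but the sources used here do not say whether counting used the strand, and reads of such partners then cannot be told apart with certainty.

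The largest groups show both layouts. The group of 5 at chr1:52411932-52436678 has 2 members on the plus and 3 on the minus strand, led by MSTRG.1570 (16052 bp, minus strand). That member held 133, 86.6, 96.5, 97.7 and 98.9 normalised counts in wild-type and 1743, 2123 and 2428 as the lowest, median and highest in knockout. Its groups are far apart. The domain lists Nab1, a corepressor of EGR transcription factors, as its single mRNA, higher.

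The group of 4 at chr6:127826620-127860608 is led by MSTRG.76751 (29567 bp, minus strand), with 340.1, 293, 268, 311 and 428 normalised counts in wild-type and 3198, 4282 and 5321 in knockout. All its knockout libraries exceed all its wild-type libraries. Its domain, TAD_1024, has 8 members and lists Prmt8, Tead4, Tspan9, Tspan11 and Tulp3, all higher. Besides the members 16 features were tested there, of which 11 were called higher and 0 lower, where 15.6% and 12.6% of all features tested were.

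At chr19:56645424-56663710 lie 4 members led by MSTRG.46592 (12990 bp, minus strand), which held 61.7, 37.6, 33.4, 37.7 and 42.4 normalised counts in wild-type and 398, 549.9 and 657 as the lowest, median and highest in knockout. The 4 at chr1:89183388-89189631 lie 2 on each strand. Their leading member, MSTRG.3392 (1153 bp, minus strand), held 9.60, 0.941, 0.928, 0.967 and 5.04 in wild-type and 108, 191 and 289 in knockout. In both the groups are apart, and the domain of the second lists Sh3bp4 alone, as higher.

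At chr12:101622031-101640967 lie 4 members, all on the minus strand. MSTRG.21904 there held 5.49, 8.47, 3.71, 14.5 and 16.1 normalised counts in wild-type and 290.1, 599.9 and 1091 in knockout. The groups are apart, but the knockout libraries spread widely, with a coefficient of variation of 45.6%. The domain lists Catsperb, Rin3, Slc24a4 and Tc2n, all higher.

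The domain with most members, TAD_1807 on chromosome 12, lists no mRNA. Its 13 members, all on the minus strand, run from MSTRG.20430 (chr12:68325422-68326115) to MSTRG.20474 (chr12:68429947-68434689), and 8 of them overlap the non-coding gene Gm47456. MSTRG.20474, the most abundant, held 12.3, 13.2, 26.0, 18.4 and 25.2 normalised counts in wild-type, and 144, 202 and 253 as the lowest, median and highest in knockout. The group of 6 and a group of 5 lie in this run. MSTRG.20438 leads the first, with 6.86, 12.2, 4.64, 11.6 and 4.03 in wild-type and 54.7, 78.9 and 121 in knockout. MSTRG.20454 leads the second, with 4.11, 9.41, 13.0, 10.6 and 16.1 in wild-type and 83.8, 108 and 149 in knockout. No groups of libraries overlap here, and the 13 members had ratios of 10.2 to 22.2. The feature MSTRG.20464 in the same stretch missed the rule at 9.98. Besides the members 36 features were tested in this domain, picked for holding the most members, and 25 were called higher and 3 lower, where 15.6% and 12.6% of all features tested were.

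Members fell into 203 domains, of which 129 held 1 member each. The 19 domains with 4 or more members held 111 members. Besides the members they had 293 features tested, of which 148 (50.5%) were called higher and 22 (7.51%) lower, against 15.6% and 12.6% of all features tested. These domains were picked for the members they hold. Only 17 members (4.66%) lay between domains, against 8.34% of all features tested, and 1 lay in 2 domains.

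**Figure D4:**
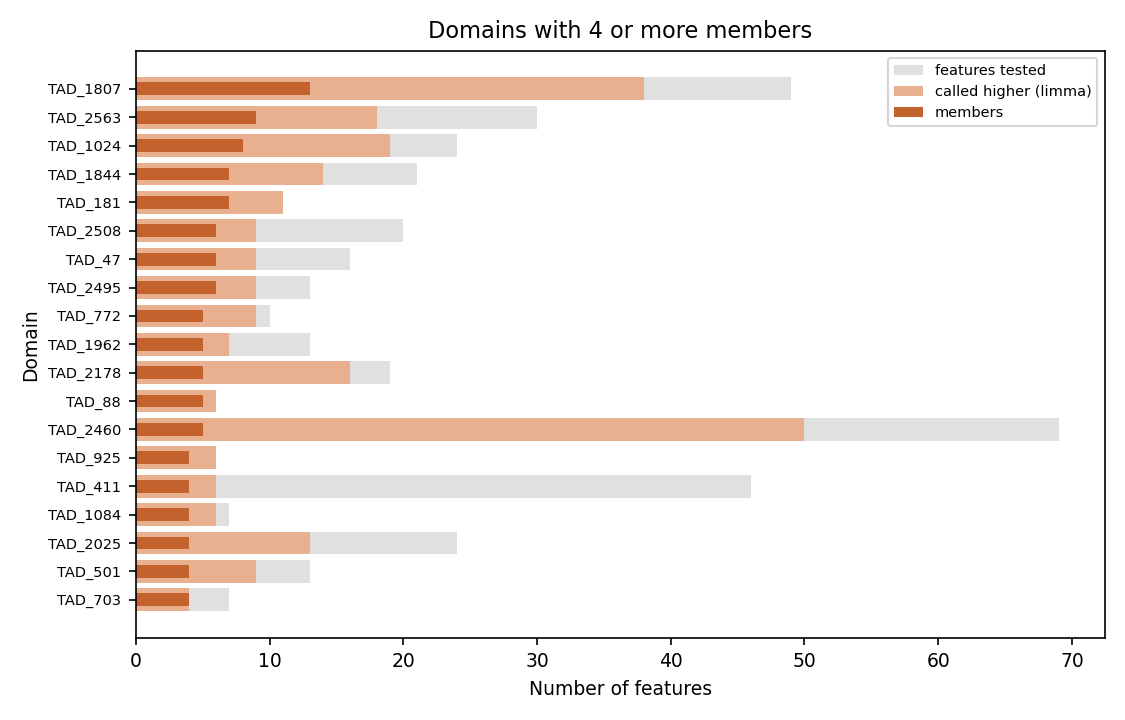
Number of features tested (grey), called higher in knockout by limma (light orange) and chosen as members (orange) in each of the 19 domains with 4 or more members. TAD_1807 has 13 members among 49 features tested, and in TAD_181 all 11 features tested, 7 of them members, were called higher.

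The mRNAs listed for the members' domains were not used by the rule. The sources used here do not give how, or from which samples, the authors made these lists. Domains of 222 members (60.8%) listed only higher mRNAs, those of 38 (10.4%) only lower ones, those of 43 (11.8%) both, and those of 62 (17.0%) none. Over all features tested the shares were 25.4%, 14.0%, 14.1% and 46.5%. With each domain counted once, 144 of the 203 domains with a member (70.9%) listed a higher mRNA, against 30.7% of the 2683 domains with a feature tested.

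The mirror set had the opposite makeup. Of its 548 features, 42.0% lay in domains that list only lower mRNAs and 11.9% in domains that list only higher ones. For the other features of knockout mean at least 20 these shares were 12.7% and 26.9%, near those of all features tested. The members' ratio of means had a median of 16.7 with higher mRNAs only, 18.5 with both, 19.9 with lower only and 14.8 with none.

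The nearest coding gene was listed as a higher mRNA for 151 members (41.4%) and as a lower one for 15 (4.11%). Over all features tested the shares were 9.38% and 5.71%, and in the mirror set 1.28% and 44.9%. With each group of neighbours counted once, by its most abundant member, it was listed as higher for 107 of 261 (41.0%).

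**Figure D5:**
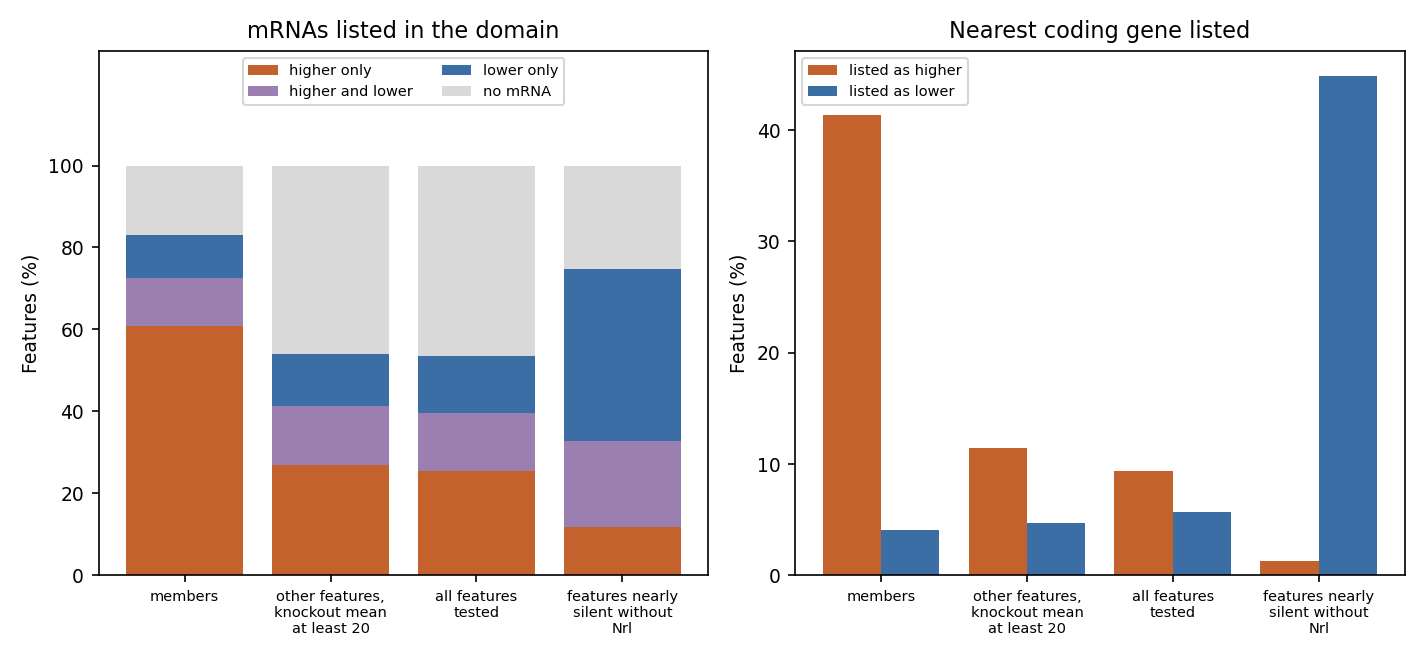
Left, share of features (%) by the mRNAs listed in their domain, for the 365 members, the 7683 other features of knockout mean at least 20, all 21395 features tested and the 548 features nearly silent without Nrl. Right, share whose nearest coding gene is listed as a higher or lower mRNA: 41.4% of members have a gene listed as higher, against 9.38% of all features tested.

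Some abundant members lay in domains that list only lower mRNAs. MSTRG.38356 (chr17:27637214-27643561, minus strand) lies in a domain that lists Fance, Ppard, Rpl10a, Tcp11 and Tead3, all lower. It held 199, 101, 129, 110.3 and 111 normalised counts in wild-type and 1526, 2173 and 2673 as the lowest, median and highest in knockout, with no overlap. It was chosen for the text after its values were seen, as were the members named at Gm8189, C1qa, Otx2, Chrnb4, Apcs, Gm10803, Gm33616, Gm47887, A930038B10Rik and Pde6h, MSTRG.72793, MSTRG.20474, and the 3 without wild-type reads.

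Among 14 marker lists for retinal and other cell types, that of cone genes was tied to the most members, by domain or overlap. Domains listing a cone gene as higher held 19 members (5.21%), against 0.706% of all features tested, and 6 members overlapped a cone gene on the other strand, 2 each at Opn1sw and Cngb3 and 1 each at Pde6c and Pde6h. MSTRG.72794 (chr6:29388335-29390593, plus strand) at Opn1sw held 37.0, 18.8, 26.9, 25.1 and 16.1 normalised counts in wild-type and 372, 589 and 834 as the lowest, median and highest in knockout. Its neighbour MSTRG.72793 held 0, 0, 0, 2.90 and 2.02 in wild-type and 31.9, 50.0 and 59.6 in knockout. In both the groups are apart, with ratios of 24.0 and 49.8. The Opn1sw feature is a neighbour of a gene that cones transcribe strongly, and without the strand of counting its reads and those of the opsin gene cannot be told apart with certainty.

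MSTRG.45842 (chr19:38142415-38142607, minus strand, 193 bp), opposite to Pde6c, the catalytic subunit of the cone phosphodiesterase, held 6.86, 3.76, 11.1, 7.74 and 10.1 normalised counts in wild-type and 71.7, 102 and 131 in knockout. MSTRG.77033 (chr6:136960461-136960728, minus strand), opposite to Pde6h, the inhibitory subunit, held 1.37, 4.70, 8.35, 7.74 and 8.07 in wild-type and 50.9, 78.3 and 96.7 in knockout. Both are apart between the genotypes, and both are among the few members under 300 bp, where 357 of the 365 are at least that long.

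Other members shared a domain with a higher-listed cone gene without overlapping it. MSTRG.5941 (chr1:167438527-167439934, plus strand) lies in the domain of Rxrg, the retinoid X receptor gamma of cones, next to Lrrc52. It held 64.5, 30.1, 21.3, 31.9 and 27.2 normalised counts in wild-type and 327, 469.8 and 664 in knockout. The domain of Sall3, a zinc finger factor of cones and horizontal cells, held 6 members. The most abundant member of each of their groups of neighbours lay 444853, 462614 and 536846 bp from the start of Sall3. The domain of Cckbr, the cholecystokinin B receptor gene, held MSTRG.82539 (35.9 ± 6.52 and 431 ± 66.9) and MSTRG.82527 (32.6 ± 4.68 and 353 ± 90.4, SD, n = 5 and 6). Their nearest coding genes were Olfr686 and Olfr685.

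Of the list of 14 photoreceptor transcription factors, 4 are listed as higher and 6 as lower mRNAs. Domains listing one as higher held 6 members (1.64% against 0.280% of all features tested), at Otx2 and Rxrg, and domains listing one as lower held 2 (0.548% against 0.360%), at Nrl and Rorb. The domain of Otx2, a homeobox regulator of photoreceptor and bipolar cells, held 4, of which MSTRG.27960 (chr14:48613753-48616703, minus strand) had 10.97, 8.47, 1.86, 1.93 and 13.1 normalised counts in wild-type and 209, 335 and 355 in knockout. Opposite to Esrrg, an orphan nuclear receptor gene, lay 3 members between domains. The most abundant, MSTRG.6882 (chr1:188026736-188030216, minus strand), held 45.3, 32.9, 35.3, 29.0 and 36.3 in wild-type and 328, 406 and 547 in knockout. In both members all knockout libraries lie above all wild-type libraries.

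Among the other lists, the domain of the microglial complement genes C1qa, C1qb and C1qc, all listed as higher, held 4 members among 7 features tested, and that of Tyrobp, a microglial adaptor gene, held 1 among 14. At C1qa, MSTRG.64702 (chr4:136905555-136906816, plus strand) held 0, 2.82, 0, 4.84 and 3.03 normalised counts in wild-type and 29.0, 40.6 and 57.6 in knockout, with no overlap. No member overlapped a microglial gene. Domains of higher-listed bipolar genes, Cabp5 and Lhx4, held 3 members (0.822% against 0.0888% of all features tested), of which MSTRG.77945 overlapped Cabp5. Those of glial stress genes held 2, both at Socs3, an inhibitor of cytokine signalling (0.548% against 0.533%).

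Rod genes were listed only as lower, and their domains held 2 members (0.548% against 1.54% of all features tested), 1 with Nrl and 1 with Grk1, the rhodopsin kinase gene. No member overlapped a rod gene. For Müller glia, amacrine, ganglion, horizontal, pigment epithelium, vascular, erythrocyte and lens lists, the members overlapping a gene and the members in a domain listing one as higher were both 0. In all, 44 members (12.1%) overlapped a gene of any list or lay in a domain listing one, so most did neither.

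Highest and lowest values were unevenly spread over the knockout libraries. Knockout 5 had the lowest value for 176 members (48.2%), and the highest was in knockout 1 for 134 (36.7%) or knockout 2 for 101 (27.7%). The summed member counts were 84860.2 in knockout 5, and 97567 to 114554 in the other 5. In wild-type 1 they were 8465, and 5847 to 6467 in the other 4. A read was worth 0.758 normalised counts in knockout 5 and 1.37 in wild-type 1, the ends of the range over the libraries, and the part of this scaling in the sums was not tested. The coefficient of variation over the knockout libraries had a median of 30.2% for members and 24.9% for the other features of knockout mean at least 20.

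The 3 members of smallest coefficient of variation were MSTRG.67720, MSTRG.488 and the abundant MSTRG.13234, described above. MSTRG.67720 (chr5:46028251-46029260, plus strand) held 24.4, 25.5 and 27.3 normalised counts as the lowest, median and highest in knockout (coefficient of variation 3.90%), and a single wild-type library held a read. MSTRG.488 (chr1:16767272-16767442, minus strand) held 53.9, 57.1 and 61.6 in knockout and 6.86, 1.88, 0.928, 1.93 and 0 in wild-type. MSTRG.86285 (chr8:60950294-60951134, plus strand) held 3.91, 17.5 and 53.0 in knockout, with knockout 1 far above the rest, and 1.37, 0.941, 0.928, 0 and 0 in wild-type. Its coefficient of variation was 78.6%, and that of MSTRG.77803 (chr7:7140833-7141413, plus strand), with 5.86, 13.1 and 45.8 in knockout and 1 wild-type read, was 81.5%.

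MSTRG.1428 (chr1:45728161-45734089, minus strand) alone had overlapping groups. It held 0, 0, 0, 1.93 and 33.3 normalised counts in wild-type and 18.7, 0, 10.8, 0, 337 and 67.4 in knockout libraries 1 to 6. Knockout 5 carries its knockout mean of 72.3 ± 132 (SD, n = 6): without it the mean is 19.4, under the limit of 20. Wild-type 5 was likewise far above the other wild-type libraries, whose mean was 0.484. The start of the predicted gene Gm39637 lies 40 bp from its 5′ end. This feature varies between libraries of either genotype and meets the rule through 1 library.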

How the data were processed

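Libraries of RNA depleted of polyadenylated transcripts were read as 50 bp stranded single-end reads, per the labels' protocols. The deposited table holds DESeq2-normalised counts per feature and library (unit signal: counts divided by size factors), on mm10 by the table's name, per the file headers. The deposited log2 fold change, Wald score and p-value of the authors' own comparison were not used. Cuffdiff, TopHat2 2.0.10 and Cufflinks 2.2.1 are named, with no role, per the submitters' processing notes. The sources used here do not give the assembler, the counter or the making of domains and mRNA lists.

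The 36180 lines hold 36097 features, 83 of them with 2 lines, each used once. Values were whole multiples of 1 read in 100% of cases (tolerance 0.001), which gave reads per library. Starts were written counting from 1. limma 3.58.1 on log2(count + 1), with group as the only term and two-sided tests, was fitted to the 21395 features of mean at least 5, with Benjamini-Hochberg adjustment and a threshold of 0.05. Differences of low features are understated on this scale. edgeR 4.0.16 and DESeq2 1.42.0 on the recovered reads called 15.5% and 15.4% of features higher, with 365 and 364 members. The fit was also run on simulated data, with a fixed spread and smaller fold differences than the members have. That run does not bear on the members.

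Members and lists were chosen with earlier results of these data known. The text names the 10 members of highest knockout mean, the leading members of the 8 largest groups, those next to the limits, the 3 longest and 3 shortest, up to 8 at marker genes, the 3 most and least variable, those with overlapping groups, and the highest in wild-type and in each placement. Further members named after their values were seen are said to be so. Placement and distances used GENCODE M21. A count of 0 was taken to allow up to 3 reads per library, which covers counting error only.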

Additional observations from a re-analysis of the deposited data

Results flagged for a closer look

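In 80 groups of libraries examined (the named members, the feature opposite to Nrl and the sum over the members, in each genotype), 16 had a library standing apart by Dixon's gap test at 95%, where chance gives about 1 in 20 for normally distributed values. Counts near 0 are not so distributed, and some members were named for their large variation. Nothing is therefore read from the number found. Values are normalised counts. Wild-type 1 was the highest of its group for MSTRG.46587 (1229, the others 650.0 to 799.8), MSTRG.1570 (133, the others 86.6 to 98.9), MSTRG.5941 (64.5, the others 21.3 to 31.9) and MSTRG.488 (6.86, the others 0 to 1.93). It was also the highest in the sum over all members (8465, the others 5847 to 6467). Wild-type 5 was the highest for MSTRG.32145 (921, the others 580.1 to 677), MSTRG.25908 (10.1, the others 1.88 to 4.11) and MSTRG.1428 (33.3, the others 0 to 1.93).

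Knockout 5 was the lowest of its group for MSTRG.67714 (2179.5, the others 2595 to 2807) and MSTRG.83937 (12.1, the others 39.8 to 55.7). It was the highest for MSTRG.1428 (337, the others 0 to 67.4). Knockout 1 was the highest for MSTRG.86285 (53.0, the others 3.91 to 21.1). The remaining cases were single reads beside zeros: 0.758 in knockout 5 for MSTRG.28375, 0.967 in wild-type 4 for MSTRG.74601 and for MSTRG.77803, and 0.928 in wild-type 3 for MSTRG.67720.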

How the results depend on the processing

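The number of members follows the rule's limits: 562 with a knockout mean of at least 10, 209 with at least 50, 751 at 1/5 and 154 at 1/20 of the knockout mean. With at least 50 the median length was 1800 bp and the median coefficient of variation over knockout libraries 26.6%. By medians in place of means there were 403 members, 342 of them shared, and with scaling to the total of listed reads 377, which kept all 365. Leaving out 1 library gave 347 to 409 members, of which 336 to 357 were among the 365. Restricting the test to a mean of at least 20 left 1722 features called higher, 260 of them members, and 1628 lower, since fewer were tested. Leaving out 1 library gave 3115 to 3456 higher and 2366 to 2785 lower calls, 364 members called higher each time, and a log2 difference of -5.40 to -5.16 at the feature opposite to Nrl. The replicate block gave 3727 higher and 3189 lower calls and 364 members. Deviations of libraries with the same number correlated at 0.294, 0.00135, 0.123, 0.0512 and 0.273. Those of libraries with different numbers correlated at -0.388 to 0.341, and not every library correlated best with its own number. These values cannot show whether libraries of the same number share a litter or batch. The labels name no such link, and it was not tested. All 570 alternative values of the 38 named members kept their direction and side of the threshold. Those values leave out edgeR, DESeq2 and the other limits on the mean. Of these, edgeR called all 365 members higher, so MSTRG.1428 changed side there. For the other results, 94 alternative values stayed the same or, for counts, within 1.5 times.

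Members with few wild-type reads have ratios that the depth does not fix, and members of 1 group or domain are not independent. Strand use in counting is not given, and the rule chose members on the contrast described.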
